A study of Mus musculus with 19 samples.

Results

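The 10 genes described here mark the first steps of B cell development and of antigen receptor gene recombination: Rag1, Rag2, Dntt, Vpreb1, Igll1, Vpreb3, Cd79a, Blk, Ebf1 and Pax5. They were chosen by gene symbol, are 10 of the 36682 genes in the deposited table of counts and FPKM, and all 10 passed the filter on low counts that left 22778 genes for testing. They were read in dorsal root ganglia, where the cell bodies of sensory neurons lie beside the spine, from 19 male mice. Rag1 and Rag2 were at 0 to 12 counts in all 9 libraries from mice given the drug AP20187, and Rag1 was at 98 to 878 counts in all 10 libraries from mice given vehicle.

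All mice were homozygous for MaFIA (macrophage Fas-induced apoptosis), a transgene under the Csf1r promoter, active in macrophages and related myeloid cells, which lets AP20187 trigger cell death in those cells. The groups were mice operated on the knee (destabilization of the medial meniscus, DMM, which leads to osteoarthritis) and given AP20187 (n = 5) or vehicle (n = 5), and naive mice of matching age given AP20187 (n = 4) or vehicle (n = 5). Injections were intraperitoneal, 1 a day for 5 days, and the design text places those of DMM mice 8 weeks after surgery. The L3-L5 ganglia were pooled, and in DMM mice these came from the operated side. The labels number samples, each taken here as 1 mouse and named below by its group and number; p-values measure the spread between these samples. Libraries held 60984830 to 74691396 counts. Since the vehicle mice carried the transgene too, the comparisons show AP20187 in MaFIA mice and not the transgene itself; mice without it were not analysed here.

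B lymphocytes arise in bone marrow from progenitors that switch on the transcription factors Ebf1 and then Pax5, which commit the cells to the B lineage. The recombinase Rag1 and Rag2 then cuts the immunoglobulin gene segments, Dntt adds untemplated bases at the joins, and the new heavy chain is tested on the cell surface with the surrogate light chain made by Vpreb1 and Igll1, which signals through Cd79a and Cd79b. The recombinase and the surrogate light chain are switched off in mature B cells, and ganglia are not known as a site of B cell development.

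The start sites of these genes are shown because the early B program is classically read through 3 short motifs. In RefSeq's promoter table (build GRCm38.p6), 9 of the 10 genes were matched, Ebf1 with 2 windows, and Blk was not matched. The 250 bases before each RefSeq start site were searched on both strands for the Ebf core CCCNNGGG, the E-box CAGGTG bound by E2A proteins, and the octamer ATGCAAAT. The Ebf core stood in 1 of the 9 genes (Igll1) and in 11.8% of all 32851 promoters, the E-box in 4 (Rag1, Igll1, Vpreb1, Cd79a) and in 17.2%, and the octamer in 1 (Vpreb3) and in 1.60%. Windows of Rag2, Pax5, Ebf1 and Dntt held none of the 3, and no matches overlapped. The 5 windows with a match follow, on the gene's strand, with the matches in capitals.
Rag1, chr2:101649533-101649782, minus strand: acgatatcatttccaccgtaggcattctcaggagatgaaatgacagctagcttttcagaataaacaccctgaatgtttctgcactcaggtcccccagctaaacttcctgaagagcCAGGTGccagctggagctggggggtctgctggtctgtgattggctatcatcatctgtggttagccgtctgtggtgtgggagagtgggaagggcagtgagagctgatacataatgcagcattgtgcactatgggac
Igll1, chr16:16863986-16864235, minus strand: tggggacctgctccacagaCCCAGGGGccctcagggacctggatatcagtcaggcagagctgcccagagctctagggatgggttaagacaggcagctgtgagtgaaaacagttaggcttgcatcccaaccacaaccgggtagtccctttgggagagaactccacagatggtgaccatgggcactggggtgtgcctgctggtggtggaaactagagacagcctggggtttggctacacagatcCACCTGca
Vpreb1, chr16:16869256-16869505, minus strand: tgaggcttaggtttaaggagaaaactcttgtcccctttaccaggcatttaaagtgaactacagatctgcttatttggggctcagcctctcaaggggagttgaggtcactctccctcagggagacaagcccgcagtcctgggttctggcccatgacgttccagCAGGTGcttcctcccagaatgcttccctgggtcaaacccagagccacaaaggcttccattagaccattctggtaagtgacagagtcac
Vpreb3, chr10:75948050-75948299, plus strand: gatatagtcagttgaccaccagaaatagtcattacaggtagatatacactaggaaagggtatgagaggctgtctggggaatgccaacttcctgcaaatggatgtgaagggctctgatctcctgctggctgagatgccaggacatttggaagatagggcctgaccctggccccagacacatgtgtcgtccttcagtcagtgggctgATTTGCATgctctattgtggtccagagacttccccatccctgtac
Cd79a, chr7:24897247-24897496, plus strand: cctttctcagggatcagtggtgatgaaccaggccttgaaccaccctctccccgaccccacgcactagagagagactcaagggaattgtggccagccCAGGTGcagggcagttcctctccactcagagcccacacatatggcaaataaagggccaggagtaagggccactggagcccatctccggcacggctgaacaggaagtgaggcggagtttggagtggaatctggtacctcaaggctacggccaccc
The E-box of Igll1 lay at base -8 from the start site and its Ebf core at -231. The E-boxes of Vpreb1, Rag1 and Cd79a lay at -88, -135 and -154, and the Vpreb3 octamer at -45. A match describes letters only, and binding was not measured.

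Levels can be compared between genes only per length, on the FPKM scale. In naive mice with vehicle, the mean FPKM was 15.9 ± 2.50 (SD, n = 5) for Ebf1, 4.64 ± 1.55 for Cd79a and 2.13 ± 1.15 for Vpreb3. The other 7 genes lay below these, from Pax5 at 0.989 ± 0.656 and Blk at 0.904 ± 0.426 through Rag1 at 0.675 ± 0.326, Dntt at 0.546 ± 0.446, Igll1 at 0.470 ± 0.219 and Vpreb1 at 0.420 ± 0.291 to Rag2 at 0.205 ± 0.138. Ebf1 was above every other gene in each of the 5 libraries, and Blk was above Rag1 in each of them. The other neighbours from Pax5 down to Vpreb1 changed order between libraries. In DMM mice with vehicle the spread was wider: the mean FPKM of Cd79a was 8.10 ± 7.72 (SD, n = 5), that of Ebf1 13.7 ± 4.29 and that of Rag1 1.01 ± 0.718.

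**Figure D1:**
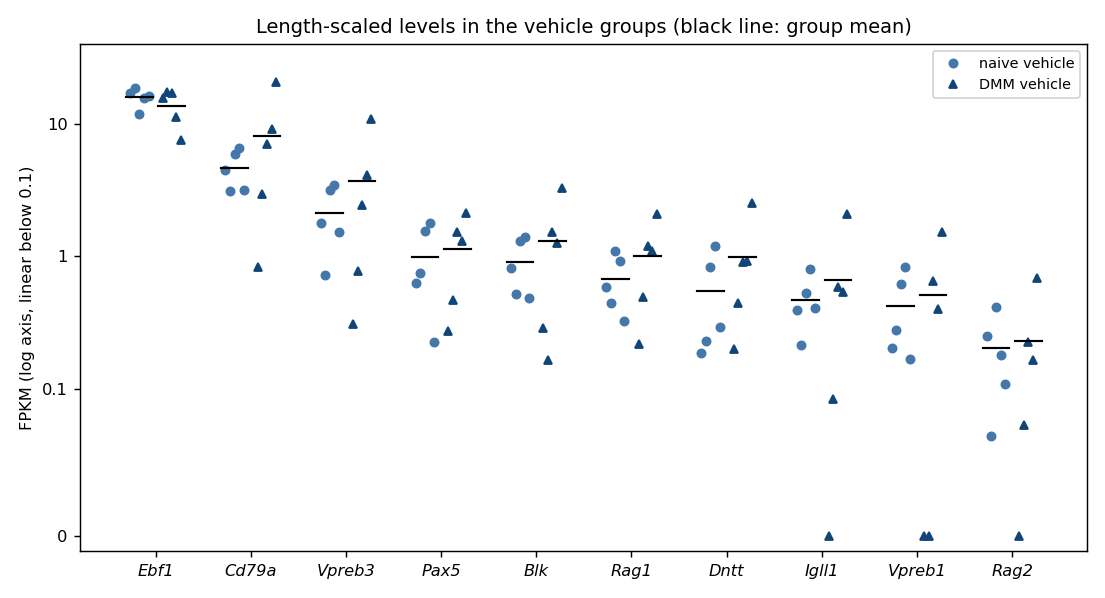
FPKM of the 10 genes in the 5 naive and the 5 DMM libraries with vehicle, ordered by the naive mean; each point is 1 mouse, black lines are group means, and the axis is logarithmic above 0.1. Ebf1 lay highest in the naive libraries and Rag2 had the lowest mean; DMM points of most genes spread more widely than naive ones.

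AP20187 was compared with vehicle by edgeR's quasi-likelihood F test on the counts, in 1 model of all 4 groups, with Benjamini-Hochberg adjustment over all tested genes. In DMM mice 8 of the 10 genes fell, against 12.4% of all tested genes that fell and 11.3% that rose, and none of the 10 rose. In naive mice 7 fell, against 2.57% of all tested genes that fell and 8.61% that rose, and again none rose. The median log2 fold change of the 10 genes was -3.99 in DMM and -3.93 in naive mice, where that of all tested genes was -0.10 and -0.07. Every AP20187 library lay below every vehicle library for 4 of the 10 genes in DMM mice (Rag1, Vpreb3, Cd79a and Pax5; 4.18% of all tested genes) and for 8 in naive mice (all but Dntt and Ebf1; 6.15%). The 2 comparisons share no library. In bulk tissue, fewer cells of a type and less RNA per cell cannot be told apart, and this holds for every value below.

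**Figure D2:**
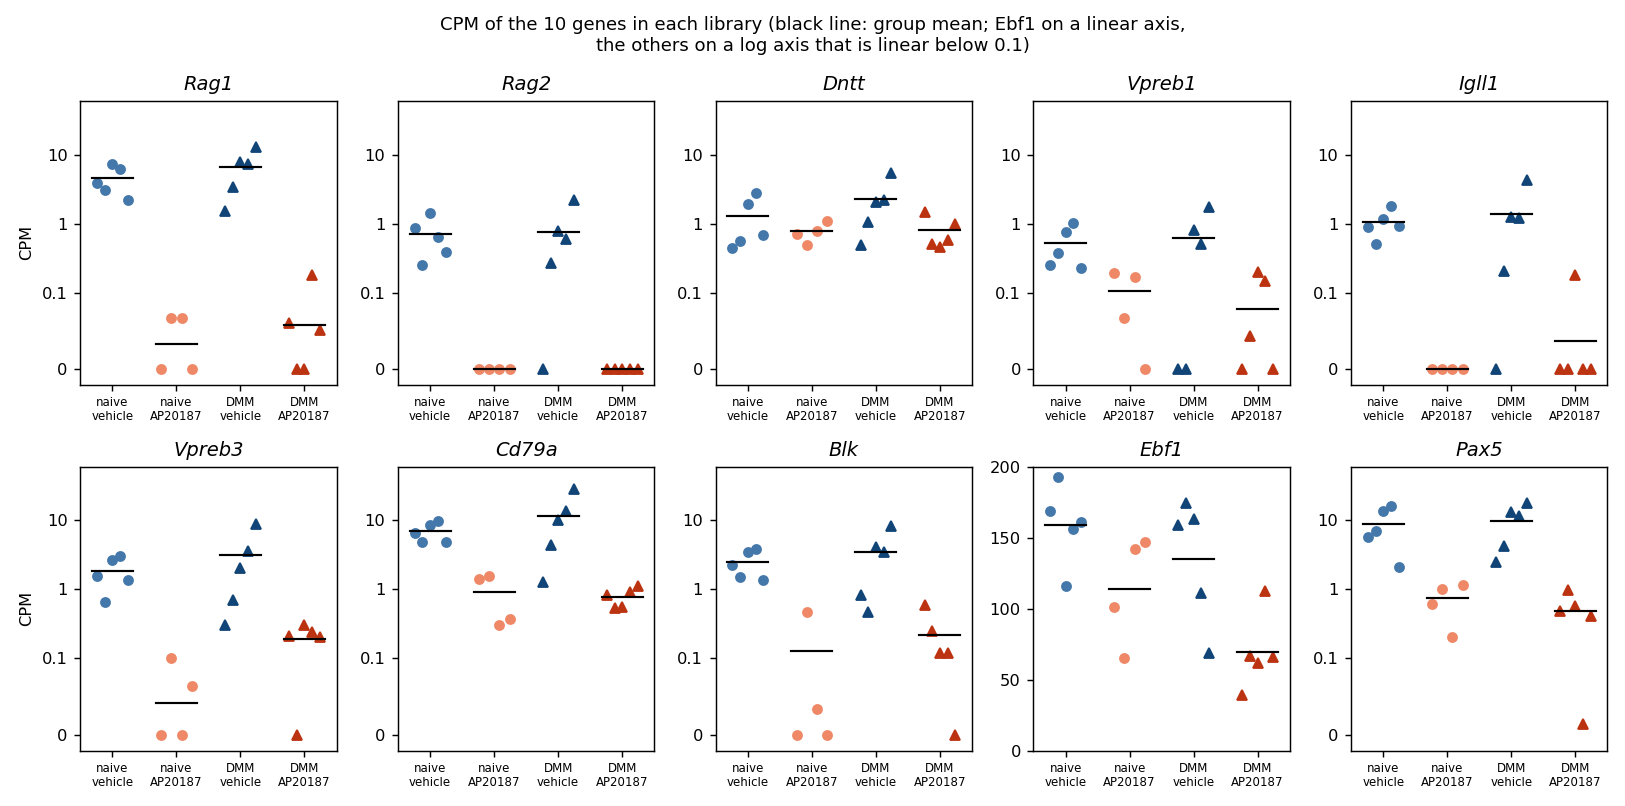
CPM (counts relative to the TMM-scaled library size) of each gene in every library, by group; each point is 1 mouse and black lines are group means. Rag1 with vehicle lay between 1.51 and 12.9 CPM and with AP20187 at or below 0.180 CPM, while Dntt and Ebf1 overlapped between AP20187 and vehicle.

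Of the recombinase genes, Rag1 (ENSMUSG00000061311, chr2:101468627-101479846, minus strand, GRCm39) encodes the subunit that cuts DNA. Its counts with vehicle were 98, 226, 512, 489 and 878 in DMM mice 32, 33, 34, 63 and 64, and 249, 199, 542, 388 and 167 in naive mice 1 to 5. With AP20187 they were 4, 0, 0, 12 and 3 in DMM mice 58 to 62, and 0, 4, 4 and 0 in naive mice 1, 3, 4 and 5. The highest AP20187 library thus stood far below the lowest vehicle library in both settings. The log2 fold change was -6.77 ± 0.88 (SE) in DMM (adjusted p = 0.000117) and -7.0 ± 1.02 in naive mice (adjusted p = 0.00054). In DMM mice the ratio of mean CPM was 113, from 6.59 ± 4.42 to 0.0583 ± 0.0735 (SD, n = 5 each); without AP20187 mouse 61, which held 12 counts, it was 236.

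Rag2, its partner subunit, lies beside Rag1 (chr2:101455063-101462874, plus strand), with 5753 bases between them. It was at 0 counts in all 9 AP20187 libraries. With vehicle its counts were 0, 18, 51, 39 and 150 in DMM mice 32, 33, 34, 63 and 64, and 55, 16, 108, 40 and 29 in naive mice. Rag2 was detected in 9 of 10 vehicle libraries, and only DMM mouse 32, which also had the lowest vehicle Rag1 count, was at 0. Against a floor of 3 counts per library, Rag2 was at least 16.6-fold lower with AP20187 in DMM (adjusted p = 0.00441) and at least 14.2-fold lower in naive mice (adjusted p = 0.0138). Without DMM vehicle mouse 64 the DMM bound was 8.82-fold. A deposited count need not be 1 fragment, and with a higher floor these bounds, and that of Igll1, would be smaller. Where Rag2 was above 0, the ratio of Rag1 to Rag2 FPKM ran from 2.35 to 6.63.

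Rag1 overlaps the gene Iftap on the same strand and Rag2 overlaps it on the opposite strand; how the counting shared such reads is not given in the sources used here. Iftap held 43646 counts over the 19 libraries against 3775 for Rag1, and was at 23.3 to 50.8 CPM in DMM and 19.8 to 44.6 CPM in naive libraries. Its adjusted p for AP20187 was 0.598 in DMM and 0.565 in naive mice (edgeR), with log2 fold changes of -0.17 and -0.20.

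Dntt (terminal deoxynucleotidyl transferase, chr19:41017714-41047964, plus strand), which is also known in lymphoid progenitors before B lineage commitment, did not pass in either comparison. Its counts with AP20187 were 96, 35, 30, 39 and 58 in DMM mice 58 to 62 and 41, 29, 47 and 68 in naive mice. With vehicle they were 32, 71, 136, 145 and 370 in DMM mice 32, 33, 34, 63 and 64, and 28, 36, 143, 174 and 52 in naive mice 1 to 5. The groups overlapped, and Dntt was above 0 in all 19 libraries. The log2 fold change was -1.49 ± 0.60 in DMM (adjusted p = 0.0767) and -0.73 ± 0.64 in naive mice (adjusted p = 0.454; -0.22 without naive vehicle mouse 4). In DMM the call turned on the setting: the adjusted p was 0.0444 with DESeq2 and 0.0445 with edgeR without DMM vehicle mouse 32; without mouse 64 the log2 fold change was -0.86. Dntt and Rag1 therefore stood in different proportions: the ratio of Dntt to Rag1 FPKM was 0.321 to 1.29 in the 10 vehicle libraries and 9.38 to 73.0 in the 5 AP20187 libraries where Rag1 was above 0.

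In both vehicle groups Igll1 and Vpreb1, the surrogate light chain genes, had the lowest mean FPKM next to Rag2. Igll1 (lambda 5, chr16:16678535-16681849, minus strand), the constant-region-like part of that chain, carried both an Ebf core and an E-box in the window printed above. Its counts with vehicle were 0, 14, 83, 80 and 292 in DMM mice 32, 33, 34, 63 and 64, and 56, 33, 87, 111 and 68 in naive mice. With AP20187 it was at 0 in 8 of 9 libraries and at 12 in DMM mouse 60. The log2 fold change in DMM was -5.17 ± 1.42 (adjusted p = 0.018), and -9.50 without mouse 60, which leaves an AP20187 group at 0 throughout. In naive mice Igll1 was at least 20.9-fold lower (adjusted p = 0.017; 0.0518 without naive AP20187 mouse 3).

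Vpreb1 (chr16:16686267-16688707, minus strand), the variable-region-like part of the surrogate light chain, lies 4418 bases from Igll1. Its counts with vehicle were 0, 0, 53, 34 and 119 in DMM mice 32, 33, 34, 63 and 64, and 16, 24, 56, 64 and 17 in naive mice. With AP20187 they were 0, 3, 13, 10 and 0 in DMM mice 58 to 62 and 11, 4, 10 and 0 in naive mice. The naive groups did not overlap, whereas DMM vehicle mice 32 and 33 were at 0 as some AP20187 libraries were. Neither comparison passed, with log2 fold changes of -2.93 ± 1.34 in DMM (adjusted p = 0.118) and -2.29 ± 1.42 in naive mice (adjusted p = 0.290). Counts near the floor limit this gene, and its opposite-strand neighbour Top3b, at 25.5 to 57.0 CPM, overlaps it. Top3b rose with AP20187 in DMM (log2 fold change 0.69, adjusted p = 0.00193). The near-identical copy Vpreb2 had counts in 3 libraries only, all DMM vehicle: 28 in mouse 34, 8 in mouse 63 and 39 in mouse 64. The division of reads between Vpreb1 and Vpreb2 is uncertain.

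Vpreb3 (chr10:75778891-75785491, plus strand), a relative of Vpreb1 that associates with immunoglobulin chains inside the cell, was more abundant. Its counts with vehicle were 20, 47, 136, 239 and 602 in DMM mice 32, 33, 34, 63 and 64, and 99, 43, 203, 189 and 103 in naive mice. With AP20187 they were 14, 0, 20, 16 and 12 in DMM mice 58 to 62 and 0, 6, 0 and 4 in naive mice. In DMM, mouse 60 with AP20187 and mouse 32 with vehicle had equal counts and nearly equal CPM, at 0.305 and 0.308. The log2 fold change of Vpreb3 was -4.00 ± 0.94 in DMM (adjusted p = 0.00671) and -5.42 ± 1.17 in naive mice (adjusted p = 0.00731).

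Cd79a (Ig-alpha, chr7:24596806-24601622, plus strand) is the signalling chain that both the pre-B and the mature B cell receptor use, and is expressed throughout the B lineage. Its CPM with vehicle was 1.28, 4.46, 10.003, 13.6 and 28.4 in DMM mice 32, 33, 34, 63 and 64, and 6.62, 4.79, 8.56, 9.74 and 4.80 in naive mice 1 to 5. With AP20187 it was 0.818, 0.541, 0.549, 0.914 and 1.12 in DMM mice 58 to 62, and 1.40, 1.55, 0.303 and 0.373 in naive mice. No AP20187 library reached its own vehicle group, but Cd79a kept 18 to 92 counts in each AP20187 library, where Rag1 had at most 12. The log2 fold change of Cd79a was -3.87 ± 0.65 in DMM (adjusted p = 0.000798), a 14.6-fold difference of mean CPM (9.29-fold without DMM vehicle mouse 64), and -2.93 ± 0.68 in naive mice (adjusted p = 0.0113), a 7.61-fold difference. Rag1 FPKM per Cd79a FPKM was 0.10 to 0.259 in vehicle libraries and at most 0.0512 in AP20187 libraries.

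Blk (chr14:63610285-63654486, minus strand), a Src-family kinase that relays B cell receptor signals, had counts of 54, 32, 268, 232 and 564 with vehicle in DMM mice 32, 33, 34, 63 and 64, and of 143, 97, 264, 239 and 102 in naive mice. With AP20187 they were 39, 17, 8, 8 and 0 in DMM mice 58 to 62, and 0, 28, 2 and 0 in naive mice. Only DMM mouse 58 with AP20187 reached above the lowest vehicle library of its setting. For Blk the log2 fold change was -3.97 ± 1.06 in DMM (adjusted p = 0.0132) and -4.28 ± 1.2 in naive mice (adjusted p = 0.0287). The naive call rests on few libraries: the adjusted p was 0.0817, 0.0631 and 0.0511 without naive AP20187 mouse 1, AP20187 mouse 4 and vehicle mouse 1, and the log2 fold change was -7.57 without AP20187 mouse 3.

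Of the transcription factors, Pax5 (chr4:44524757-44710487, minus strand), the B lineage commitment factor, fell in both settings. Its CPM with vehicle was 2.53, 4.31, 13.2, 11.8 and 17.7 in DMM mice 32, 33, 34, 63 and 64, and 5.71, 7.0, 13.7, 16.2 and 2.08 in naive mice 1 to 5. With AP20187 it was 0.485, 0.965, 0.580, 0.0150 and 0.408 in DMM mice 58 to 62, and 0.623, 1.01, 0.202 and 1.17 in naive mice. The lowest vehicle value, 2.08, was above the highest AP20187 value, 1.17. Pax5 had log2 fold changes of -4.33 ± 0.77 in DMM (adjusted p = 0.00115) and -3.57 ± 0.81 in naive mice (adjusted p = 0.00941).

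Ebf1 (chr11:44508144-44898918, plus strand), which acts upstream of Pax5 in B cells but is also known in stromal cells and neurons, followed another pattern. Its CPM with vehicle was 159, 175, 164, 111 and 69.0 in DMM mice 32, 33, 34, 63 and 64, and 169, 193, 116, 156 and 161 in naive mice 1 to 5. With AP20187 it was 39.3, 66.5, 61.6, 113 and 66.4 in DMM mice 58 to 62, and 101, 65.3, 142 and 147 in naive mice. The groups overlapped in both settings, through DMM vehicle mice 63 and 64 and naive vehicle mouse 3. Ebf1 fell by 0.97 ± 0.29 on the log2 scale in DMM (adjusted p = 0.0225), while the naive log2 fold change was -0.48 ± 0.30 (adjusted p = 0.297; -0.30 without naive AP20187 mouse 3). The DMM call was lost on leaving out AP20187 mouse 58 or 60 or vehicle mouse 32, 33 or 34 (adjusted p of 0.051 to 0.0625). With vehicle mice 63 and 64 alone as controls the log2 fold change was -0.35 (adjusted p = 0.631).

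Sensory neuron markers were read beside Ebf1. Of 12 such genes, 8 fell with AP20187 in DMM mice, where 12.4% of all tested genes fell. In naive mice 0 passed, where 2.57% of all tested genes fell. Avil, Rbfox3 and Nefl fell by 1.65, 1.51 and 1.49 in DMM. The median log2 fold changes of the 12 genes were -1.37 in DMM and -0.82 in naive mice. In DMM mice their summed CPM was 1691 to 7566 under AP20187 and 5355 to 15242 under vehicle. In naive mice it was 2371 to 12422 and 8930 to 17439. Within DMM vehicle, mouse 64 had the lowest Ebf1 and the lowest neuron sum, and within DMM AP20187 mouse 61 had the highest of both. In naive vehicle the extremes differed: Ebf1 was lowest in mouse 3 and highest in mouse 2, the neuron sum lowest in mouse 4 and highest in mouse 5. Of 13 fibroblast and mural cell markers, 1 rose in DMM and 0 passed in naive mice, where 11.3% and 8.61% of all tested genes rose. Ganglion glia markers had a like pattern: of 10 such genes, 4 fell in DMM and 0 passed in naive mice. The part of neurons or glia in the Ebf1 result was not tested.

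**Figure D3:**
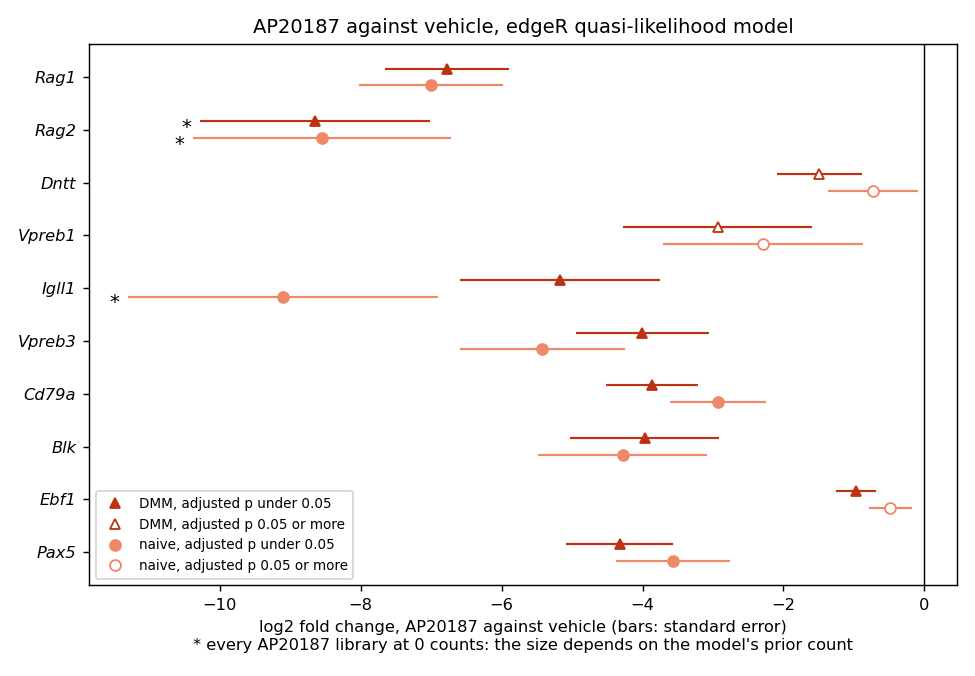
Log2 fold change of AP20187 against vehicle for each gene, with standard errors, in DMM (triangles) and naive mice (circles); filled symbols had an adjusted p under 0.05, and stars mark genes at 0 in every AP20187 library. Ebf1 and Dntt lie nearest to 0 in both settings, and all 20 values are below 0.

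DMM and naive mice were then compared within each treatment. With vehicle, 0 of the 10 genes passed (0% of all tested genes did), and 0 had an unadjusted p under 0.05 in edgeR; DESeq2 called 0 as well. The log2 differences, DMM minus naive, ran from -0.23 for Ebf1 to 0.81 ± 0.59 for Dntt, with 0.74 ± 0.58 for Cd79a and 0.54 ± 0.65 for Rag1. These standard errors leave room for differences of more than 1 log2 unit in either gene. With AP20187, 0 of the 10 passed (0.702% of all tested genes), 1 had an unadjusted p under 0.05 in edgeR and DESeq2 called 0. That gene was Ebf1, with a log2 difference of -0.72 ± 0.30 and an adjusted p of 0.239 in edgeR; Vpreb3 stood at 2.15 ± 1.11 (adjusted p = 0.335). The interaction (the AP20187 log2 fold change of DMM mice less that of naive mice) passed for 0 of the 10 (0.114% of all tested genes), with 0 at an unadjusted p under 0.05 in edgeR and 0 in DESeq2. It was 0.23 ± 1.13 for Rag1, -0.94 ± 0.86 for Cd79a and -0.76 ± 0.99 for Pax5. The largest values were 3.92 ± 2.57 for Igll1, at 0 in every naive AP20187 library, and 1.42 ± 1.35 for Vpreb3. With these errors, differences of a few-fold were not detectable here.

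The vehicle libraries differed widely among themselves. DMM mouse 64 was the highest of the 10 vehicle libraries for 9 of the 10 genes and the lowest for Ebf1, and DMM mouse 32 was the lowest for 6, tied with DMM mouse 33 at 0 for Vpreb1. For Cd79a the highest vehicle library was 22.2-fold above the lowest, for Vpreb3 28.7-fold and for Ebf1 2.79-fold. In DMM vehicle the mice numbered 63 and 64 had a mean Cd79a of 21.0 CPM and those numbered 32 to 34 one of 5.25 CPM; for Ebf1 the order was opposite, at 90.2 and 165.7 CPM. Whether these numbers mark separate runs is not stated in the labels. With mice 32 to 34 alone as controls 7 of the 10 genes fell in DMM, Igll1 no longer passing (adjusted p = 0.0636), and with mice 63 and 64 alone 7 fell as well, without Ebf1.

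Erythroid genes, the defining genes of red cell precursors, which share the bone marrow with early B cells, increased in the same order as Cd79a over the 5 DMM vehicle mice. The summed CPM of 17 such genes was 1723, 2831, 7162, 11844 and 27119 in DMM vehicle mice 32, 33, 34, 63 and 64. It was 3869, 4087, 6550, 13688 and 3488 in naive vehicle mice 1 to 5. With AP20187 it was 1373 to 5357 in DMM and 2097 to 4420 in naive mice. With AP20187, 10 of the 17 genes fell in DMM, where 12.4% of all tested genes fell. Rhd fell by 2.40, Trim10 by 2.23 and Hba-a2 by 2.08 on the log2 scale there. In naive mice 0 passed, where 2.57% of all tested genes fell. The median log2 fold changes of the 17 genes were -1.75 in DMM and -0.94 in naive mice. The AP20187 and vehicle ranges of the erythroid sum overlapped in both settings. DMM AP20187 mouse 58, with an erythroid sum above that of naive vehicle mice 1, 2 and 5, had 4 Rag1 counts where those had 249, 199 and 167. Per 1000 CPM of erythroid genes, Rag1 was at 0.457 to 1.19 CPM in vehicle libraries and at 0 to 0.0745 CPM in AP20187 libraries. Cd79a per 1000 erythroid CPM was 0.743 to 1.58 in DMM vehicle against 0.153 to 0.685 in DMM AP20187, and 0.712 to 1.71 against 0.116 to 0.452 in naive mice. Those ranges did not overlap on this scale. The Pax5 ranges overlapped in DMM, at 0.653 to 1.84 with vehicle and 0.00621 to 0.703 with AP20187. They did not overlap in naive mice (0.598 to 2.09 and 0.0772 to 0.556). These ratios depend on the genes chosen as the scale. What part the erythroid content has in the early B result was not tested.

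**Figure D4:**
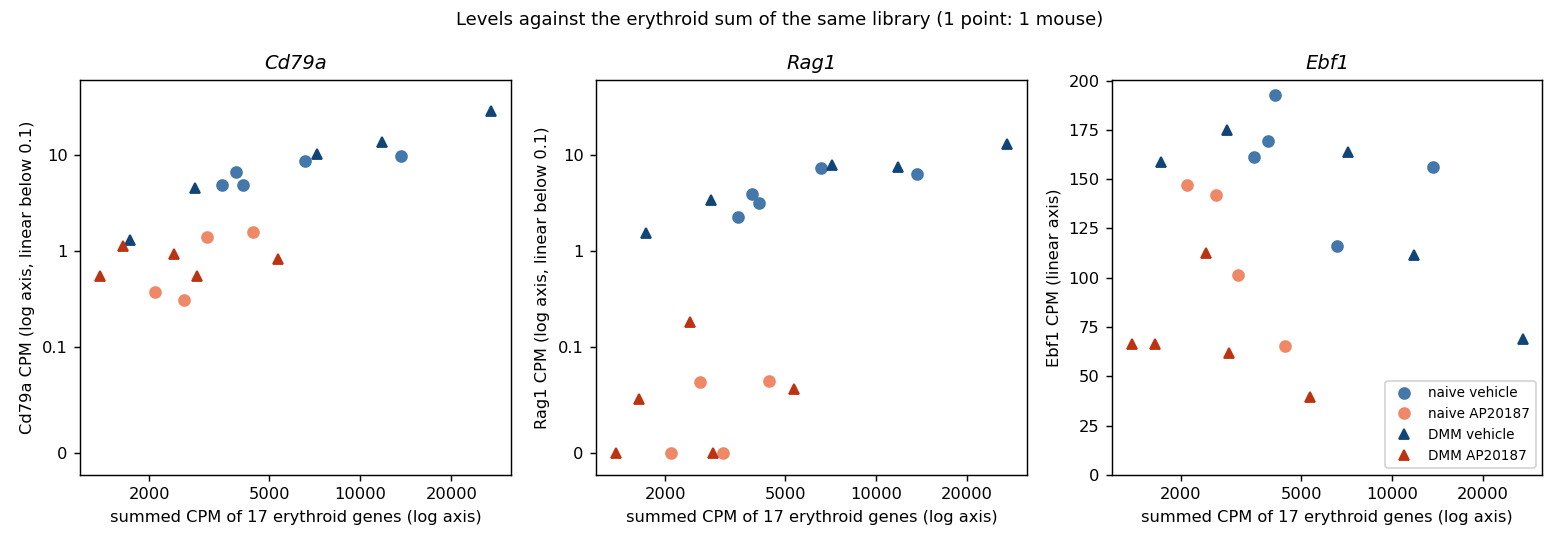
CPM of Cd79a, Rag1 and Ebf1 against the summed CPM of 17 erythroid genes in the same library, 1 point per mouse. Cd79a and Rag1 were high in the vehicle libraries with high erythroid sums, and AP20187 libraries lay below vehicle libraries of similar erythroid sum; Ebf1 showed its lowest vehicle value, 69.0 CPM, at the highest erythroid sum, 27119 CPM.

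Granulocyte precursor markers moved the opposite way to the early B genes under AP20187. Of 10 such genes 9 rose in DMM and 10 rose in naive mice, with medians of 3.21 and 3.50; Ctsg and Prtn3, proteases of the neutrophil granule, rose by 4.15 and 3.92 in DMM and by 4.5 and 4.02 in naive mice. Their summed CPM with AP20187 was 11792 to 20074 in DMM and 5606 to 16909 in naive mice. With vehicle it was 270 to 5098 in DMM and 565 to 1603 in naive mice. In DMM vehicle mice 32, 33, 34, 63 and 64 this sum was 270, 461, 1393, 1810 and 5098 CPM. It increased there in the same order as Cd79a. In naive vehicle mice 1 to 5 it was 570, 598, 1173, 1603 and 565 CPM, in another order than Cd79a. Of 12 markers of macrophages, the cells in which the transgene acts, 0 fell in either setting, 1 rose in DMM (Mrc1) and 4 rose in naive mice (Fcgr1, Cd68, C1qb and Aif1), where 11.3% and 8.61% of all tested genes rose; the DMM count is not told apart from that share. The macrophage sum was 257 to 1015 CPM under AP20187 and 173 to 656 under vehicle in DMM mice; in naive mice it was 478 to 806 under AP20187 and at most 485 under vehicle. What part these cells have in the early B result was not tested.

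The companion lists are to be read beside the shares of all tested genes: 12.4% fell and 11.3% rose in DMM, and 2.57% fell and 8.61% rose in naive mice. The companions of the pre-B receptor did not move as 1 group. Among 15 tested genes of pre-B and B cell receptor signalling, 3 fell and 10 rose in DMM, and 2 fell and 6 rose in naive mice, with medians of 1.52 and 1.32. The receptor chain Cd79b fell by 2.57 and 2.55 on the log2 scale in DMM and naive mice. The kinase Btk rose by 1.93 in DMM and the phosphatase Ptpn6 by 2.01 in naive mice; both are also used in myeloid cells.

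The other B lineage transcription factors split likewise: of 23, 5 fell and 6 rose in DMM, and 3 fell and 6 rose in naive mice. Spib, a B and plasmacytoid dendritic cell factor, fell by 4.01 and 3.01 on the log2 scale in DMM and naive mice, and Irf4 by 2.69 in naive mice. Spi1 (PU.1), shared with myeloid cells, rose by 2.60 and 2.56, and Ikzf1 (Ikaros), active across blood cells, by 2.53 in DMM. Of all listed genes, Lef1 alone, singled out after its values were seen, passed the interaction test (log2 difference -2.29, adjusted p = 0.00888): it fell by 1.34 in DMM and rose by 0.95 in naive mice. Lef1 is a factor of pro-B and T cells and of Wnt signalling.

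Genes that act with the recombinase but in all cells were also counted. Of 16 end joining and cofactor genes, 1 fell and 2 rose in DMM, and 0 fell and 1 rose in naive mice, few enough that they are not told apart from the shares of all tested genes (12.4% and 11.3% in DMM, 2.57% and 8.61% in naive mice). The DNA-bending cofactor Hmgb2, also a gene of dividing cells, rose by 2.62 and 2.39, while Trp53bp1 fell by 0.96 and Dclre1c (Artemis), which opens the hairpin ends, rose by 0.70 in DMM. Of 12 surface and cytokine receptor genes of early B cells, 3 fell and 3 rose in DMM, and 0 fell and 1 rose in naive mice. Ly6d fell by 3.22 in DMM, and Bst1 rose by 2.56 and 2.61. Of 8 factors that B cells receive from their niche, 0 fell; the B cell chemokine Cxcl13 rose by 6.87 (adjusted p = 1.09e-05) and 6.31 (adjusted p = 3.39e-05), from 0.0622 to 1.05 CPM with vehicle to 10.1 to 59.6 CPM with AP20187, and Cxcl12 and Tnfsf13 rose by 1.42 and 1.33 in DMM.

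Markers of later and neighbouring cells were read in the same way. Of 18 mature B cell markers, 11 fell and 1 rose in DMM, and 5 fell and 1 rose in naive mice, with medians of -1.94 and -1.40. Fcer2a (CD23) fell by 5.02 and 4.03 on the log2 scale, Fcmr by 4.49 in DMM and Ms4a1 (CD20) by 3.13 in naive mice. The sum of these 18 genes overlapped between treatments, at 119 to 305 CPM with AP20187 and 143 to 811 with vehicle in DMM, and at 125 to 311 and 112 to 446 in naive mice. Of 10 plasma cell markers, 2 fell and 2 rose in DMM, and 1 fell and 1 rose in naive mice; Xbp1 rose by 1.5 and 1.45, Derl3 rose by 2.07 in DMM, and Irf4 fell by 1.74 in DMM. Their sum was 316 to 515 and 280 to 389 CPM with AP20187 in DMM and naive mice, and 186 to 332 and 185 to 233 with vehicle. Most of this sum came from Xbp1 and Txndc5, genes of many cell types: mean Xbp1 was 250.9 CPM with AP20187 and 88.7 with vehicle in DMM, mean Txndc5 87.8 and 98.0, and mean Mzb1 0.920 and 1.02. Of 10 plasmacytoid dendritic cell markers, 2 fell and 0 rose in DMM, and 1 fell and 1 rose in naive mice, with sums of 88.3 to 166.9 CPM with AP20187 and 61.5 to 264.8 with vehicle; Cox6a2 rose by 3.03 in naive mice. Counts this small, for the plasma and the plasmacytoid lists, are not told apart from the shares of all tested genes.

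Developing T cells also use Rag1, Rag2 and Dntt. Of 19 tested T cell and thymocyte markers, 1 fell in DMM (Thy1, by 1.22, a gene that neurons express as well) and 0 passed in naive mice, with medians of -0.51 and 0.06; these counts are not told apart from the shares of all tested genes that fell, 12.4% and 2.57%. Their sum, to which Thy1 contributed 68.3 to 531.5 CPM, was 105 to 288 CPM under AP20187 and 254 to 466 under vehicle in DMM mice, and 149 to 403 and 309 to 551 in naive mice. Ptcra, the pre-T receptor chain, failed the filter, with 0 counts in 14 of 19 libraries and at most 12. Of 10 ganglion glia markers, 4 fell in DMM and 0 passed in naive mice, with sums of 3053 to 6820 CPM with AP20187 and 4188 to 8523 with vehicle. No tested gene of these lists was at 0 in every library of a group.

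The genes most like the 9 members other than Ebf1 were sought by Pearson correlation of log2 CPM with their mean standardized profile over the 19 libraries, which share treatment and composition; the values are descriptions. The closest were Niban3 (r = 0.975), Ms4a1 (0.945), Cd79b (0.944), Klhl14 (0.943), Ccr2 (0.935), Tifab (0.929), Spib (0.923) and Chst3 (0.921). Niban3 was at 5.07 and 7.46 CPM in naive and DMM vehicle and at 0.769 and 0.959 CPM with AP20187, and the chemokine receptor Ccr2, known on monocytes, at 32.1 and 54.2 against 7.74 and 9.0 CPM. Against the same mean, which holds the gene itself, Rag2 had r = 0.970, Cd79a 0.963 and Igll1 0.960, whereas Vpreb1 had 0.774, Dntt 0.700 and Ebf1, outside the mean, 0.319. The genes nearest to Ebf1 were Eml1 (0.992), Kcna6 (0.991), Ebf3 (0.990), Myh14 (0.990) and Nedd4l (0.989).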

How the data were processed

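Bulk poly(A) RNA of pooled ganglia from 19 mice was sequenced from stranded libraries, per the labels' protocols. The submitters' processing notes name cutadapt, HISAT2 and StringTie, without versions or roles, and build GRCm39; the counting rule is not given in the sources used here. Whole-number counts for each gene and FPKM, which are scaled to gene length and library size, are the values the authors deposited. The value 4 stood 16651 times in the deposited counts and the value 3 stood 7867 times, so a count need not be 1 fragment.

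Counts were tested with edgeR 4.0.16 (R 4.3.3): TMM, filterByExpr (minimum count 10), 1 model of 4 groups, 15 residual degrees of freedom, two-sided tests, Benjamini-Hochberg over 22778 genes, threshold 0.05, 5 contrasts. Libraries of 60984830 to 74691396 counts put the floor of 3 counts at 0.0445 to 0.0504 CPM; floors cover counting error only. A log2 fold change against a group near 0 depends on the prior count. Numbered samples, taken as mice, are the replicates. FPKM were used for levels between genes, for ratios and, with limma 3.58.1, in alternatives, which also included DESeq2 1.42.0, other filters, fewer groups and each library left out.

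The members and the 15 companion lists were chosen with earlier results of these data known. From each list at most 3 genes were named per AP20187 contrast, those of largest change that passed and reached a group mean of 1 CPM, except Aif1 and Lef1, named after their values were seen; 1 gene that the rule would name is not reported here. The same replicate numbers 1, 3, 4 and 5 occur in both naive groups; same-numbered libraries did not all deviate together (correlations of 0.00781, 0.254, -0.0532 and 0.223), so they were not paired.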

Additional observations from a re-analysis of the deposited data

Results flagged for a closer look

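In 37 combinations of gene and group with counts above 0, each library was set against its group, and 2 stood far from the others by Dixon's 95% critical value; chance alone marks about 1 in 20. Igll1 in DMM AP20187 mouse 60 was at 0.183 CPM (12 counts), where the other 4 libraries were at 0; with all others at 0 any value above 0 is marked, so the chance rate does not apply to it. Blk in naive AP20187 mouse 3 was at 0.473 CPM (28 counts), where the others had 0, 2 and 0 counts. Without these libraries the 2 genes had log2 fold changes of -9.50 and -7.57.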

How the results depend on the processing

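In the 2 AP20187 contrasts, the only ones where directions were followed, no direction reversed. Under all alternatives the number of genes called was 7 to 9 of 10 in DMM and 5 to 7 in naive mice. This number was 0 in the other 3 contrasts. Leaving out each library in turn gave 7 to 8 in DMM and 6 to 7 in naive mice. On log2(FPKM + 1), which understates low genes, Rag2 lost its call in DMM (adjusted p = 0.0575) and naive mice (0.0956), and Igll1 in naive mice (0.0833). With the 2 DMM groups alone, 8 of the 10 genes passed the filter and 7 fell. A fit with the replicate number as a block in naive mice 1, 3, 4 and 5 (replicate block) called 7 genes, against 6 in the same 8 libraries with no block, an alternative added after the data were seen; Blk was the gene lost (adjusted p = 0.0568). The cause of these changes was not tested. Low counts limit Rag2, Igll1 and Vpreb1 the most.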
